A study of Mus musculus with 7 samples.

Results

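The focal adhesion genes Vcl, Tln1, Pxn, Zyx, Ilk, Lims1, Parva, Actn1, Actn4 and Flna, were followed in mouse embryonic stem cells with and without calreticulin. All probe sets were taken whose platform annotation gives one of these symbols alone, on all 7 arrays. This rule found each of the 10 genes and 23 of the 45101 probe sets, of which 18 were bright enough to be tested. There were 5 samples of calreticulin knockout (KO) cells, labelled CRT knockout, and 2 samples of wild type (WT) cells. Both groups are of D3, an established mouse embryonic stem cell line, and the labels name no treatment. Every sample was RNA pooled from replicate cultures and hybridised to its own Affymetrix Mouse 430 2.0 array. The submitters call each sample a biological replicate of its own. The labels do not say whether the KO samples go back to 1 clone or to several, and a p-value covers only the variation among these 7 samples.

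Focal adhesions are the plaques at which integrins, the receptors for extracellular matrix, are tied to actin filaments. Talin binds the integrin tail and switches the receptor on, vinculin strengthens the link from talin to actin under load, and the complex of integrin-linked kinase, PINCH and parvin forms a further bridge. Paxillin and zyxin are adaptors of the plaque, and alpha-actinins and filamin crosslink the actin behind it. Calreticulin, encoded by Calr, is a chaperone that binds calcium inside the endoplasmic reticulum, and its amount has been linked to vinculin and to cell adhesion in other cells.

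None of the 18 tested probe sets passed the test of KO against WT samples after adjustment over all probe sets. At an adjusted p under 0.05 (limma, Benjamini-Hochberg over 27022 probe sets), 0 of 18 passed, against 0.0296% of all tested probe sets, and the lowest adjusted p was 0.575. By direction, 0.0111% of all were called higher and 0.0185% lower in KO samples. At an unadjusted p under 0.05 there were 3 of 18, against 8.42% of all: 1 of Zyx, which was lower in KO samples, and 2 of Lims1, which were higher. Differences are KO minus WT on the scale of log2(signal + 20.2), where signal is the deposited intensity. They were above 0 at 10 of the 18 and below 0 at 8, with a median of 0.01, and over all tested probe sets the median was 0.07. The KO and WT values did not overlap at 1 of 18, in Pxn, against 13.6% of all probe sets. Signals are compared only within a probe set, since the level of one probe set cannot be set against that of another. In RNA of whole cultures, fewer cells of a type and less RNA per cell cannot be told apart.

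**Figure D1:**
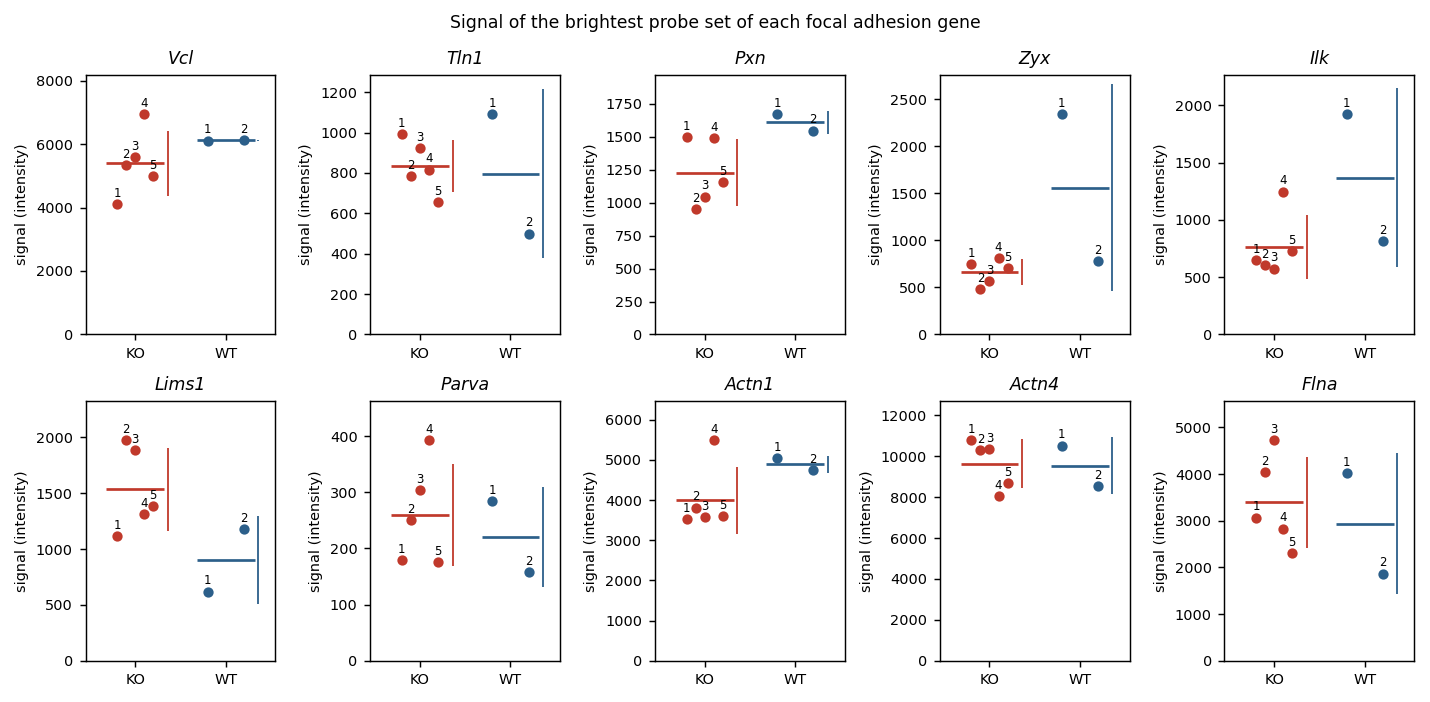
Signal (linear intensity, axis from 0) of the brightest probe set of each gene in the 5 KO and 2 WT samples, numbered by replicate. Horizontal lines are group means and vertical lines are 1 SD; the WT pair is close together for Vcl, Pxn and Actn1 and far apart for Zyx, Ilk, Tln1 and Flna.

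Some facts of the arrays touch these results. Calr, the targeted gene, had signals of 858, 1055, 1064, 577 and 1006 in KO samples 1 to 5, against 12460 and 10840 in WT samples, with its brightest probe set. Whether that probe set lies in the deleted part of the gene was not tested. KO samples 2 and 3 stood apart: their correlation was 0.985 with each other and 0.843 to 0.902 with the remaining samples, over the tested probe sets. For the Actb control probe sets, the 3' over 5' log2 ratio, which follows RNA integrity and labelling, was 0.794 and 0.892 in them. It was 1.53, 1.94 and 1.68 in KO samples 1, 4 and 5, and 1.46 and 2.08 in WT samples 1 and 2. The WT samples correlated at 0.935, while WT sample 2 correlated with KO samples 1, 4 and 5 at 0.960 to 0.972. These are correlations across probe sets, which are not independent. The summed signal of 10 stem cell markers, among them Pou5f1, Sox2, Nanog and Zfp42, was 80380 to 112543 in KO and 83531 and 98323 in WT samples, and all 10 passed the filter on signal. Such a sum is weighted to its brightest probe sets, here Dppa5a at 19095 to 34266. Pou5f1 was at 4891 and 4687 in KO samples 2 and 3, against 8770 to 11726 in the rest. Nanog was at 4841 and 4600 there, against 5456 to 9228. Esrrb and Utf1 were also lowest in those samples, and Tdgf1 and Fgf4 were highest. The summed signal of 12 fibroblast markers was 5968 and 6278 in KO samples 2 and 3, 1152 to 1619 in KO samples 1, 4 and 5, and 2474 and 1893 in WT samples. Of the 12, 10 passed the filter, and none was listed at 0. Col1a2, Col3a1, Postn, Pdgfrb, Dcn, Fbln1 and Loxl1 were highest in KO samples 2 and 3. Twist2 was lowest there, at 60.5 and 66.6 against 95.8 to 210.8. Col1a1 was at 280.0 and 365.7 there, against 10.8, 107.1 and 16.2 in KO samples 1, 4 and 5. In WT samples Col1a1 was at 324.1 and 331.9. In KO samples 2 and 3 Thy1 lay between the WT samples.

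Vinculin transcripts were measured by 2 probe sets, which gave opposite differences. The brighter one (1416156_at) had signals of 4101, 5348, 5593, 6942 and 4979 in KO samples 1 to 5, against 6112 and 6129 in the WT samples. The WT pair was nearly identical, 4 KO samples lay below it and KO sample 4 lay above it. The KO mean was 5393 ± 1034 (SD, n = 5) and the WT mean 6121 ± 12.2 (SD, n = 2), so that the KO mean was 88.1% of the WT mean. The log2 difference was -0.20 with a 95% interval of -0.76 to 0.35 (limma adjusted p = 0.762), so a level lower by more than 0.76 or higher by more than 0.35 lies outside the interval.

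The dimmer Vcl probe set (1416157_at) had signals of 323.2, 362.0, 489.6, 60.9 and 187.9 in KO samples 1 to 5, against 290.4 and 80.5 in the WT samples. Here KO samples 1, 2 and 3 were above both WT samples and KO sample 4, the highest with the brighter probe set, was the lowest of all 7. The difference was 0.54 with an interval of -0.99 to 2.07 (limma adjusted p = 0.768), and it was 0.02 without KO samples 2 and 3. The WT pair alone differed by 1.62 on the log2 scale at this probe set. KO sample 4 and WT sample 2, the lowest here, had the highest Actb 3' over 5' log2 ratios, at 1.94 and 2.08. The part of RNA integrity in these values was not tested. The annotation gives both probe sets the same RefSeq transcript, and which part of it each one reads is not in the tables used here.

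The start of Vcl is shown because, of the 11 promoter entries found for 8 of the 10 genes, it was the only one with an exact CArG box, the element bound by serum response factor (SRF). Actn1 is shown beside it because the brightest probe sets of Vcl and Actn1 ordered the samples alike: KO sample 4 was the highest of the 7, KO sample 1 the lowest, and the other 3 KO samples lay below both WT samples. The pair was chosen by these values, and it was not the closest: Zyx and Ilk correlated at 0.91, against 0.85 for Vcl and Actn1. The dimmer Vcl probe set correlated with the brighter one at -0.57. Each entry has 250 bases before and 50 after a gene's start, 5' to 3' on the gene's strand, from RefSeq on GRCm38.p6. The capitals mark matches on either strand to the CArG box, to GGAATG, a core letter run of TEAD binding sites, and to GGGCGG, the GC box. No match to one motif overlapped a match to another.
Vcl, chr14:20929148-20929447, plus strand: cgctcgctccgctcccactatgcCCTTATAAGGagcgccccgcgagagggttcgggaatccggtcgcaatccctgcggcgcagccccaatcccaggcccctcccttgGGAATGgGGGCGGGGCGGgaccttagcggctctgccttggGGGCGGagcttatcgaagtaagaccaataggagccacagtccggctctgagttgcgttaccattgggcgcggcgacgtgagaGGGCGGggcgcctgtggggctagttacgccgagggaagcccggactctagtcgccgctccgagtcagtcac
Actn1, chr12:80260314-80260613, minus strand: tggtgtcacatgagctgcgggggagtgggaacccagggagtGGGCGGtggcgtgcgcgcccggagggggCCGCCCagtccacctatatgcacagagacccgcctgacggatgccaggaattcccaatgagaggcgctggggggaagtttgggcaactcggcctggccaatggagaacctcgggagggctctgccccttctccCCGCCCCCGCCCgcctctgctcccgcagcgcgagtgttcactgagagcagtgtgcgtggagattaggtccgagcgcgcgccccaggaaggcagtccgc
In Vcl the CArG box reads CCTTATAAGG and begins at base -227 from the start, and the single GGAATG begins at base -143. Over all 32851 promoter entries of the same length, 1.63% held an exact CArG box, 14.7% GGAATG and 35.7% GGGCGG. Among the 11 entries of the focal adhesion genes the counts were 1, 3 and 7. The Actn1 window held 4 GGGCGG matches and neither of the other motifs. A match is only a description of these letters.

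Talin, the integrin activator, showed no difference beyond the spread of the WT pair. With its brighter probe set, Tln1 had signals of 993.6, 783.9, 924.7, 816.2 and 655.9 in KO samples 1 to 5, against 1091 and 499.9 in the WT samples. All 5 KO samples lay between the WT samples, which were 2.18-fold apart. The difference was 0.16 with an interval of -0.61 to 0.92 (limma adjusted p = 0.868). In the fit over genes it was 0.70 without WT sample 1 and -0.39 without WT sample 2. A dimmer tested Tln1 probe set (1436042_at) differed by 0.01 (interval -0.61 to 0.63). The third (1457782_at) was under the filter, at 26.5 to 70.3 in KO and 24.7 and 29.7 in WT samples.

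Paxillin, the scaffold on which kinases of the plaque assemble, held the lone probe set whose groups did not overlap. Its brightest probe set (1456135_s_at) had signals of 1500, 951.6, 1047, 1490 and 1156 in KO samples 1 to 5, against 1672 and 1547 in the WT samples. KO samples 1 and 4 were just under the lower WT sample, and KO samples 2 and 3 were the lowest. The KO mean was 76.3% of the WT mean. The difference was -0.41 (SE 0.28, interval -1.05 to 0.23, limma adjusted p = 0.614), and -0.23 without KO samples 2 and 3. Over all tested probe sets, 5.85% had every KO sample below both WT samples and 7.8% had every KO sample above both. The second Pxn probe set (1424027_at) pointed the same way by -0.27 with overlapping groups, at 407.1 to 623.6 in KO and 705.8 and 499.6 in WT samples. The third was under the filter, at 38.2 to 71.8 in KO and 104.0 and 35.9 in WT samples.

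Zyxin, a LIM protein that gathers at strained actin bundles, had the largest negative difference among the 18 probe sets. Zyx signals (1417240_at) were 744.9, 482.7, 570.8, 812.2 and 703.6 in KO samples 1 to 5, against 2341 and 782.0 in the WT samples. WT sample 1 was 2.99 times WT sample 2, which lay inside the KO range. The difference was -1.03 (SE 0.41, interval -1.96 to -0.11, unadjusted p = 0.0326, limma adjusted p = 0.575). With the fit over genes it was -1.81 without WT sample 2 and -0.26 without WT sample 1, so its size rests on WT sample 1. The other Zyx probe set (1438552_x_at) was under the filter, at 11.6 to 23.8 in KO and 21.8 and 15.1 in WT samples.

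The 3 genes of the complex of integrin-linked kinase, PINCH and parvin had differences of both signs, none of which passed. Ilk, the pseudokinase at its centre, had signals of 650.3, 605.8, 575.1, 1247 and 730.6 in KO samples 1 to 5, against 1924 and 816.7 in the WT samples. WT sample 1 was the highest, 4 KO samples lay below both WT samples, and KO sample 4 lay between them. The Ilk difference was -0.77 (SE 0.41, interval -1.68 to 0.15, limma adjusted p = 0.575). In the fit over genes it was -1.37 without WT sample 2 and -0.16 without WT sample 1.

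Lims1 encodes PINCH1, the LIM adaptor that holds integrin-linked kinase, and its brightest probe set pointed the opposite way to Ilk. That probe set (1418232_s_at) had signals of 1113, 1971, 1882, 1313 and 1385 in KO samples 1 to 5, against 619.6 and 1176 in the WT samples. KO samples 2 and 3 were the highest, and KO sample 1 lay between the WT samples. The difference was 0.79 (SE 0.35, interval 0.01 to 1.58, limma adjusted p = 0.575), and 0.55 without KO samples 2 and 3. In the fit over genes it was 0.34 without WT sample 1 and 1.25 without WT sample 2. The suffix _s_at marks a probe set whose probes can match more than 1 transcript.

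The other 2 tested Lims1 probe sets differed from each other. At 1418231_at the signals were 179.0, 419.3, 450.7, 99.1 and 217.3 in KO samples 1 to 5, against 75.1 and 123.1 in the WT samples. KO samples 2 and 3 stood far above the rest and KO sample 4 lay between the WT samples. This was the largest positive difference of the 18, at 1.15 (interval 0.00 to 2.30, limma adjusted p = 0.575), and it was 0.61 without KO samples 2 and 3. At 1418230_a_at the 5 KO samples lay close together, at 602.2 to 768.0, and all between the WT samples, at 302.1 and 1023. The difference there was 0.22 (interval -0.70 to 1.13), and WT samples 1 and 2 differed by -1.69. The remaining 2 Lims1 probe sets were under the filter, with signals of 28.3 to 90.5 in KO and 25.2 to 59.2 in WT samples.

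Parva encodes alpha-parvin, which links the complex to actin, and its 2 probe sets gave opposite differences. The brighter one (1431375_s_at) had signals of 179.8, 250, 303.5, 392.3 and 176.1 in KO samples 1 to 5, against 284.0 and 157.7 in the WT samples, a difference of 0.21 (interval -0.61 to 1.03). The dimmer one (1416818_at) had 69.2, 93.4, 97.1, 117.5 and 92.1 in KO samples, against 197.7 and 107.7 in WT samples, a difference of -0.56 (interval -1.22 to 0.10, limma adjusted p = 0.575). With the dimmer probe set 4 KO samples lay below both WT samples and KO sample 4 lay between them. With the brighter one KO samples 3 and 4 lay above both.

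**Figure D2:**
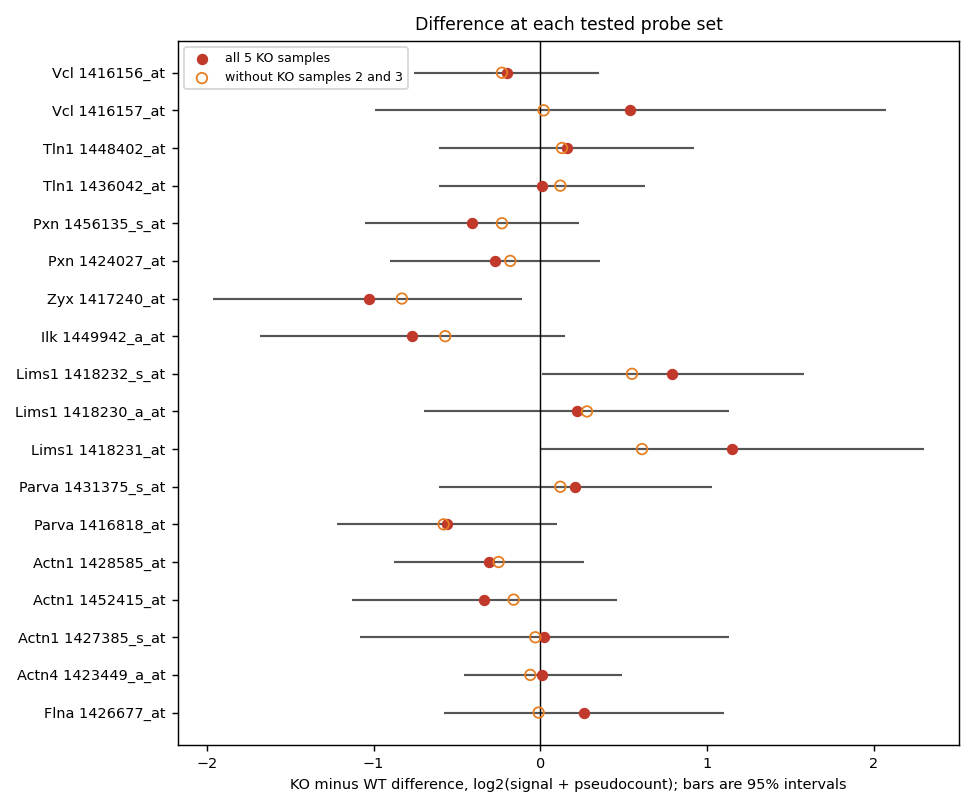
KO minus WT difference at each of the 18 tested probe sets on the log2(signal + 20.2) scale, with 95% intervals from limma as bars and the value without KO samples 2 and 3 as an open circle. The points run from -1.03 (Zyx) to 1.15 (Lims1 1418231_at), and 15 of the 18 intervals hold 0.

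The alpha-actinins, which crosslink actin filaments into bundles, had no probe set that passed the test. Actn1 had signals of 3524, 3814, 3570, 5486 and 3600 in KO samples 1 to 5 with its brightest probe set (1428585_at), against 5042 and 4743 in the WT samples. KO samples 1, 2, 3 and 5 were close together below both WT samples, and KO sample 4 stood above both. The KO mean was 3999 ± 839 (SD, n = 5) and the WT mean 4893 ± 212 (SD, n = 2). The difference was -0.31 (SE 0.25, interval -0.88 to 0.26, limma adjusted p = 0.656).

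At Actn1 probe set 1452415_at the difference was -0.34, with signals of 449.5 to 927.1 in KO and 956.9 and 625.8 in WT samples. At 1427385_s_at it was 0.02, and all 5 KO samples, at 268.0 to 617.2, lay between the WT samples at 735.2 and 184.3. Actn4, measured by 1 probe set, had signals of 10770, 10316, 10339, 8049 and 8668 in KO samples 1 to 5, against 10520 and 8544 in the WT samples. The Actn4 difference was 0.01 with the narrowest interval of the 18 probe sets, -0.46 to 0.49 (limma adjusted p = 0.985), and centring each array on its median turned its sign, to -0.11.

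Flna encodes filamin A, an X-linked crosslinker that also binds integrin tails. Its signals were 3065, 4034, 4719, 2830 and 2305 in KO samples 1 to 5, against 4016 and 1865 in the WT samples. KO samples 2 and 3 were the highest of the 7, and the other 3 KO samples lay between the WT samples. The difference was 0.26 (interval -0.58 to 1.10, limma adjusted p = 0.798) and it was -0.01 without KO samples 2 and 3.

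The WT samples often lay apart at these probe sets. WT sample 1 was above WT sample 2 at 14 of the 18, with a median difference of 0.54, while over all tested probe sets it was above at 55.8%, with a median of 0.09. The WT pair lay over 2-fold apart at 7 of the 18 probe sets, against 14.1% of all. All 5 KO samples fell between the WT samples at 3 of the 18, against 5.32% of all. WT sample 1 was the highest of the 7 samples at 8 of the 18 (23% of all) and the lowest at 3 (23.4% of all), which were the 3 Lims1 probe sets. The Actb 3' over 5' log2 ratio also differed, at 1.46 in WT sample 1 and 2.08 in WT sample 2. Its part in the distance between the WT samples was not tested.

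KO samples 2 and 3 were both above the other 5 samples at 4 of the 18 probe sets, against 26.9% of all, and both below them at 3, against 20.9% of all. The 4 were Vcl 1416157_at, Lims1 1418232_s_at and 1418231_at, and Flna, and the 3 were those of Zyx, Ilk and Pxn 1456135_s_at. The fibroblast marker sum was highest and the Actb 3' over 5' ratio lowest in the same 2 samples. Not every fibroblast marker followed the sum, and Twist2 went the other way. The part of these markers and of the ratio in the adhesion values was not tested. Without KO samples 2 and 3, 0 of 18 probe sets passed the adjusted threshold in limma, 0 had an unadjusted p under 0.05, and 3 changed sign.

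**Figure D3:**
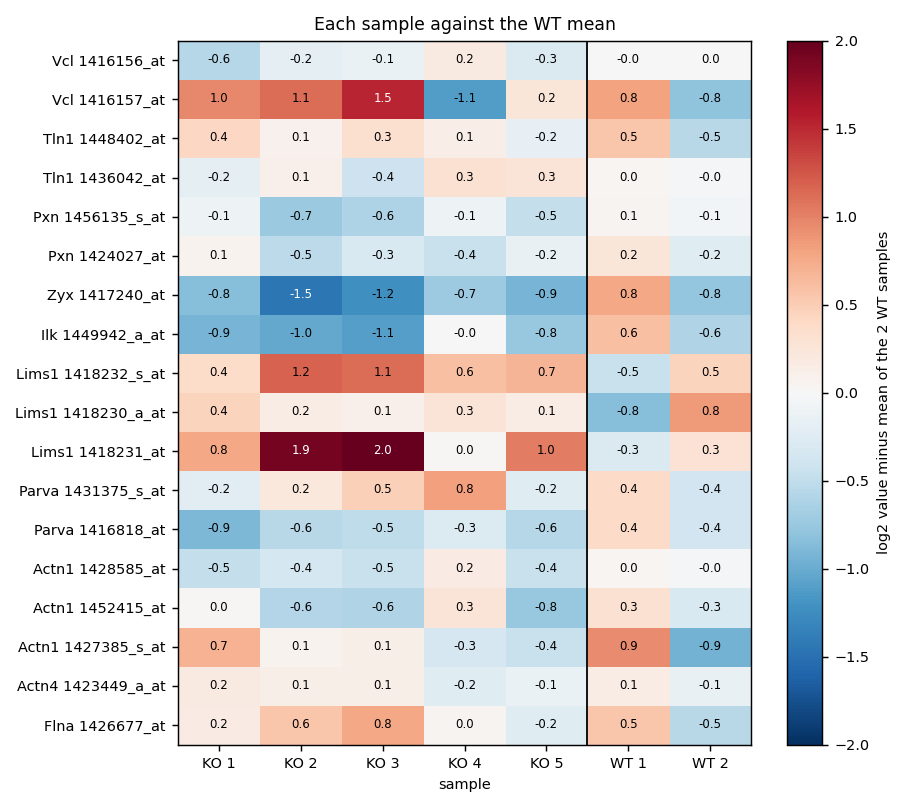
The log2(signal + 20.2) value of each sample minus the mean of the 2 WT samples, for the 18 tested probe sets in rows and the 5 KO and 2 WT samples in columns. Red is above and blue below the WT mean; the Zyx row is blue in all 5 KO samples and in WT sample 2, the Ilk row likewise except for KO sample 4, near 0 at -0.01, and the 3 Lims1 rows are blue in WT sample 1.

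The genes whose values over the 7 samples were most like those of the brightest Vcl probe set were not focal adhesion genes. By Pearson correlation of log2 values over 7 samples, among 13120 genes with 1 probe set each, they were Gpatch4 (0.977), Defb42 (0.976), Airn (0.965), Coq3 (0.964) and Agxt (0.963). Of the other 9 focal adhesion genes Actn1 was the nearest, at 0.85 and rank 115, and Actn4 the farthest, at -0.55. Defb42, Airn and Agxt were dim, at 39.2 to 167.6 in KO and 74.4 to 114.6 in WT samples. These are descriptions over 7 samples that share a pair standing apart, and the KO minus WT differences of the 5 genes, -0.44 to -0.13, did not pass (limma adjusted p = 0.635 to 0.831).

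The wider adhesion machinery was followed in 75 further genes in 7 lists, of which 68 had a probe set of their own in the tables used here and 65 passed the filter. With 1 probe set per gene, 0 of 65 passed the adjusted threshold (limma, lowest adjusted p = 0.587), against 0.0152% of all 13120 genes. At an unadjusted p under 0.05, 3 were higher and 3 lower in KO samples, against 4.66% and 3.35% of all genes, 8.02% together. The higher were Yes1 (1.09), Lpp (1.04) and Rock1 (0.74), and the lower were Evl (-1.26), Acta2 (-1.10) and Tgfb1i1 (-0.65). At each of the higher genes WT sample 2 lay inside the KO range, at 2134, 780.8 and 1817. WT sample 1 was below it, at 712.2, 339.9 and 926.4. At each of the lower genes all KO samples lay below both WT samples. Differences were below 0 at 47 of the 65, with a median of -0.18, and over all genes the median was -0.0046 and 49.7% were above 0. Without KO samples 2 and 3 the count below 0 was 38 and the median -0.10. Without WT sample 1 they were 36 and -0.07, and without WT sample 2 they were 45 and -0.40, where the median over all genes was 0.02 and -0.08. With quantile normalization it was -0.30 beside -0.09 over all genes, and with arrays centred on their medians -0.30 beside -0.12. In none of the 65 did all KO samples lie above both WT samples, against 6.4% of all genes, and in 6 all lay below, against 7.47%.

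Markers of extraembryonic and visceral endoderm, which embryonic stem cells can form, also lay mostly below 0, at 7 of 8 tested, with a median of -0.47 that was -0.78 without WT sample 1, -0.25 without WT sample 2 and -0.40 without KO samples 2 and 3. Their summed signal over 10 markers was 7747 to 13144 in KO samples, against 10712 and 11944 in WT samples, and Afp and Ttr were under the filter. Most of that sum came from Sparc, at 4136 to 6174 in KO and 7035 and 6317 in WT samples, and from Lamb1. Lamb1 was at 1761 to 5537 in KO and 2072 and 2933 in WT samples. All KO samples lay below both WT samples at 2 of the 8, against 7.47% of all genes. These were Sox17 (-1.20, unadjusted p = 0.00534) and Sparc (-0.45), both at a limma adjusted p of 0.587. Amn (-0.02) and Cubn (-0.03) lay near 0, and Lamb1 was above it, at 0.41. Without KO samples 2 and 3, Amn was at -0.29, Cubn at -0.60 and Lamb1 at -0.06, and 8 of the 8 tested markers lay below 0. The part of these markers in the adhesion values was not tested.

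Of the integrin activators and linkers, 2 of 7 tested genes were above 0, with a median of -0.04, which was 0.08 without WT sample 1, -0.11 without WT sample 2 and 0.11 without KO samples 2 and 3. The brightest were Tns3, a tensin that ties integrin tails to actin, with 5941 ± 508 in KO and 8647 ± 3067 in WT samples (-0.50), and Fermt2, the integrin co-activator kindlin-2, with 3137 ± 584 in KO and 3310 ± 1276 in WT samples (-0.04). Relatives of the parvin complex had a median of -0.20 over 4 genes, and -0.08 without WT sample 2. Rsu1, which binds PINCH1, had 1952 ± 513 in KO and 2445 ± 64.1 in WT samples (-0.37), and Parvb had 595 ± 155 in KO and 726 ± 254 in WT samples (-0.27).

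The 16 tested genes of kinase and adaptor signalling had a median of -0.03, with 7 above 0. Ptk2, the gene of focal adhesion kinase, was not among them. Ptk2, Nedd9 and Pak1 had no probe set of their own in the annotation used here, and Apbb1ip was under the filter. The median was -0.16 without WT sample 1, 0.04 without WT sample 2 and 0.15 without KO samples 2 and 3. Crk, an adaptor that binds paxillin, had 4349 ± 593 in KO and 3845 ± 2046 in WT samples (0.28), and the phosphatase gene Ptpn12 had 3860 ± 731 in KO and 2950 ± 917 in WT samples (0.40). The tested LIM proteins of the wider lists were below 0 at 8 of 10, with a median of -0.44, and -0.20 without KO samples 2 and 3. Without WT sample 1 they were below 0 at 6 of 10, with a median of -0.31, and without WT sample 2 the median was -0.73. Their list joins relatives of paxillin and zyxin with Fhl2, Pdlim1, Pdlim5, Pdlim7 and Csrp1, LIM genes of other families. Ajuba, a LIM protein of the zyxin family, had 4158 ± 1377 in KO and 5876 ± 919 in WT samples (-0.56), and Pdlim1, which binds alpha-actinin, had 2662 ± 958 in KO and 4341 ± 558 in WT samples (-0.77).

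Among 11 tested actin-binding adhesion proteins 8 were below 0, with a median of -0.13. Without WT sample 1 the median turned to 0.11, with 5 of 11 below 0, and it was -0.51 without WT sample 2 and -0.31 without KO samples 2 and 3. Enah, an actin filament elongation factor, had 12799 ± 1563 in KO and 10082 ± 2410 in WT samples (0.36), and Cttn, the gene of cortactin, had 5787 ± 661 in KO and 5660 ± 921 in WT samples (0.03). Evl, a relative of Enah and chosen after its values were seen, had 631.1, 345.4, 288.0, 630.1 and 447.5 in KO samples 1 to 5, against 1328 and 907.4 in the WT samples. All KO samples lay below both WT samples, and the difference of -1.26 (SE 0.36, unadjusted p = 0.00634) did not pass over all genes (limma adjusted p = 0.587). It was -0.94 without KO samples 2 and 3.

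The calpains, calcium-dependent proteases that cut talin, had 3 tested genes with a median of -0.13, which turned to 0.16 without WT sample 1 and 0.01 without KO samples 2 and 3, and was -0.43 without WT sample 2. Their shared small subunit gene Capns1 had 4823 ± 1564 in KO and 6553 ± 1929 in WT samples (-0.47), and Capn2 had 959 ± 216 in KO and 855 ± 333 in WT samples (0.19). Contractility genes and targets of SRF were below 0 at 12 of 14, with a median of -0.39, which was -0.11 without KO samples 2 and 3, -0.07 without WT sample 1 and -0.84 without WT sample 2. Myh9, the heavy chain of non-muscle myosin IIA, had 4110 ± 793 in KO and 4120 ± 205 in WT samples (-0.02), and Rhoa, a GTPase that drives contractility, had 3552 ± 1125 in KO and 5139 ± 2291 in WT samples (-0.51). Values with ± are means and SD over 5 KO and 2 WT samples, and those in parentheses are KO minus WT log2 differences, none of which passed.

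**Figure D4:**
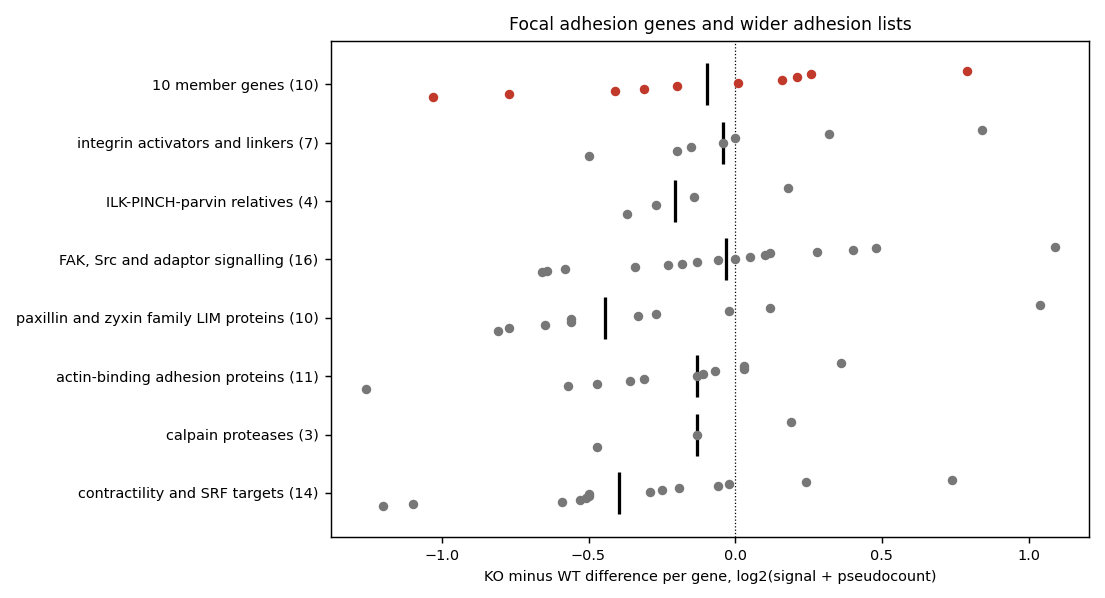
KO minus WT log2 difference of each tested gene, with the 10 focal adhesion genes in red, the 7 wider lists in grey and the median of each row as a black line (number of genes in parentheses). Each row spreads on both sides of 0, with medians from -0.44 to -0.03 in the wider lists.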

How the data were processed

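The deposited table holds 1 signal intensity per probe set and array. The submitters' processing notes name MAS5 as the authors' tool, with no version. Each array's mean was 500.0 once 2% of probe sets had been trimmed from both ends, so the deposited intensities were already scaled, and none was normalized further (array medians 92.6 to 124.9). There were no detection calls. Signals became log2(signal + 20.2), the 20th percentile of the table, which understates changes of dim probe sets. After 64 control probe sets were set aside, 27022 probe sets were tested, namely those whose log2 values averaged over the 40th percentile, about a signal of 64.8. Genes were named by the platform annotation, with symbols updated through RefSeq gene identifiers of GRCm38.p6. One probe set per gene, the brightest with a single symbol, gave 13120 genes. Groups, taken from the sample titles, entered a two-sided limma comparison without covariates (version 3.58.1 under R 4.3.3, lmFit, then eBayes with its trend option). The fit was also run on simulated data with independent noise, which hold no samples that stand apart as some do here.

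All members were named, with the 2 brightest genes of each wider list where none passed, and the 5 genes most like Vcl. List genes with an unadjusted p under 0.05 were named after their values were seen. The members and lists were chosen with earlier results of these data known. Alternatives were other normalizations, filters, pseudocounts and variance models, array weights, a replicate block, another rule per gene, and leaving out samples. The number of arrays limits the precision. Figures were drawn with matplotlib 3.10.9.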

Additional observations from a re-analysis of the deposited data

Results flagged for a closer look

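Single KO samples stood far from the other 4 on the log2 scale at 2 of the 23 probe sets checked, by the gap to the nearest sample as a share of the group's whole range. For the brightest Actn1 probe set (1428585_at), KO sample 4, at 5486 against 3524 to 3814 in the other KO samples, had a share of 0.822. For the dim Zyx probe set under the filter (1438552_x_at), KO sample 1, at 23.8 against 11.6 to 13.1 in the others, had a share of 0.858. The limit for 5 samples is 0.71, and chance flags about 1 in 20 such groups.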

How the results depend on the processing

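Under the 18 alternatives that test probe sets, 0 member probe sets passed the adjusted threshold, and of 190 member gene differences under 19 alternatives 0 passed, with a lowest adjusted p of 0.153 (Zyx without WT sample 2). The 8 probe sets called over the whole table became 5 with no filter, 4 with the filter at the 60th percentile, 15 with a replicate block, 5 without KO samples 2 and 3 together, and 0 to 7 without single samples. The 2 genes called became 1 with no filter, 1 at the 60th percentile, 46 with the replicate block, 1 without KO samples 2 and 3 together, 7 with those samples as a batch term, and 0 to 2 without single samples. The block leaves 1 residual degree of freedom, and the deviations of same-numbered samples from their group means correlated at 0.109 and -0.00979. The deviations of the 2 WT samples mirror each other, so these correlations cannot tell whether same-numbered samples shared a culture or a batch. The members' median of 0.01 ran from -0.32 (without WT sample 2) to 0.01 without single samples. Signs changed in 16 of the 190. Vcl stood at 0.17 with the mean of its tested probe sets. Without single samples Tln1 ran from -0.39 to 0.70, Parva from -0.18 to 0.60, Actn4 from -0.14 to 0.16 and Flna from -0.29 to 0.81. Parva was at -0.001 with the replicate block and -0.18 with the mean of its probe sets. Actn4 was at -0.11 with centred arrays, -0.04 with array weights, and -0.06 without KO samples 2 and 3 or with them as a batch term. Flna was at -0.01 in the last 2 settings. Pxn, Zyx, Ilk, Lims1 and Actn1 kept their sign in all 19. The cause of these changes was not tested. Centring on array medians moved the median of all tested probe sets from 0.07 to -0.05.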
